A study of Arabidopsis thaliana with 7 samples.

Results

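MT1C (AT1G07610) is 1 of the 8 metallothionein genes of Arabidopsis thaliana considered here, and 1 of the 13355 genes that could be named on the 7 Affymetrix ATH1 arrays of the study. It was taken by its name, not by its values, and it was read on 1 probe set. It was also the 1 metallothionein gene among the 13513 probe sets annotated to 1 gene, and MT1A, MT1B, MT2A, MT2B, MT3, MT4A and MT4B were not analysed here. The 503 probe sets annotated to several genes were not searched. Below, a gene on the annotation is therefore one with a probe set annotated to it alone.

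Seedlings of accession Ler-0 spent 14 days on MS (Murashige and Skoog) medium and then 21 days on MS medium with or without CdS QDs, that is, quantum dots of cadmium sulfide, which are crystals of a cadmium salt a few nanometres across. Wild type (WT) seedlings received 0, 40 or 80 mg/L, and per the labels the highest of these doses is the minimum that inhibits WT. The 2 mutant lines, atnp01 and atnp02, are labelled resistant or tolerant to the QDs and received 0 or 80 mg/L. Every group was 1 array, so no group has a spread of its own, and the sources used here do not name the genes that are disrupted in the mutants. The comparisons ask how MT1C responded to the QDs, and how its level in the mutants stood against that in WT.

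Metallothioneins are small proteins rich in cysteine, whose thiol groups bind metal ions such as copper, zinc and cadmium. In plants they are known for buffering copper and zinc and, for some members, for binding cadmium. In Arabidopsis, cadmium is chelated mainly by phytochelatins, peptides made from glutathione, while metallothioneins form a separate class of chelators. Type 1 metallothionein genes, to which MT1C belongs, are also known for transcripts in roots, in vascular tissue and in ageing leaves.

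MT1C was bright on all 7 arrays, at a level between log2 9.80 and 10.44. In WT the value was 9.80 on the unexposed array, 10.37 on the 40 mg/L array and 10.15 on the 80 mg/L array. In atnp01 it was 10.29 on the unexposed and 10.44 on the exposed array. In atnp02 the same arrays read 10.06 and 10.22. In each line the level was thus lower without QDs than with them, and at each of the shared doses the order of the lines was WT, atnp02, atnp01. The 3 arrays at 0 mg/L spanned 9.80 to 10.29 and the 3 arrays at 80 mg/L 10.15 to 10.44, so that the 2 sets overlapped, through atnp01 without QDs. In bulk RNA of whole samples, fewer cells that express the gene and less RNA per cell cannot be told apart.

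**Figure D1:**
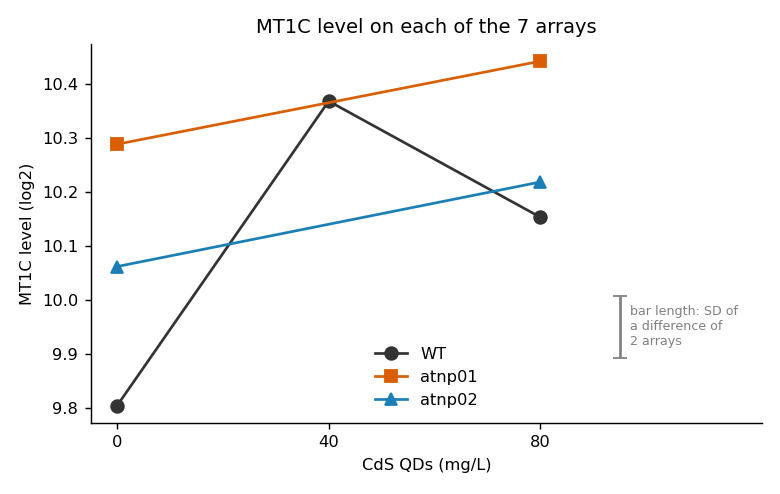
MT1C level (log2) on each array against the dose of CdS QDs in mg/L, with lines joining the arrays of WT, atnp01 and atnp02. Each point is 1 array, the vertical axis does not start at 0, and the grey bar has the length of the SD of a difference of 2 arrays (0.115). WT without QDs lies lowest at 9.80, and atnp01 at 80 mg/L highest at 10.44.

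Ordered from low to high, the arrays were WT at 0 mg/L, atnp02 at 0 mg/L, WT at 80 mg/L, atnp02 at 80 mg/L, atnp01 at 0 mg/L, WT at 40 mg/L and atnp01 at 80 mg/L. A yardstick for the steps between them came from a limma model with terms for line and dose, fitted to the 6 arrays that leave out WT at 40 mg/L. In that fit MT1C had a moderated residual SD of 0.0812, and the SD of a difference of 2 arrays was 0.115. Before moderation, which draws it towards that of genes of like brightness, the residual SD measures how unevenly the 3 lines responded. Noise of plants and arrays is included in it, and it gives no separate spread among plants of 1 line. The step from WT at 0 mg/L to its neighbour atnp02 at 0 mg/L was 0.258, or 2.24 times the SD of a difference of 2 arrays. The other 5 steps between neighbours lay between 0.065 and 0.091 and did not exceed it. By this measure 1 array stood apart, that of unexposed WT, and it enters both WT dose differences from 0 mg/L and both basal differences between a mutant and WT. The steps still hold the line and dose effects, which the fit takes out of the SD. In the fit atnp02 stood 0.16 above WT, so the step of 0.258 does not by itself mark the unexposed WT array as an outlier.

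MT1C was among the brightest probe sets on each array. Among the 22746 non-control probe sets its rank was 140 in WT without QDs, 73 at 40 mg/L and 99 at 80 mg/L. The rank was 80 in atnp01 without QDs and 54 at 80 mg/L, and in atnp02 it was 100 and 85. Between 99.4% and 99.8% of the probe sets of an array were therefore dimmer. Among named genes alone its rank lay between 17 and 41. These are ranks of brightness. The brightness of a probe set also depends on its probes, so they are no order of transcript abundance.

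**Figure D2:**
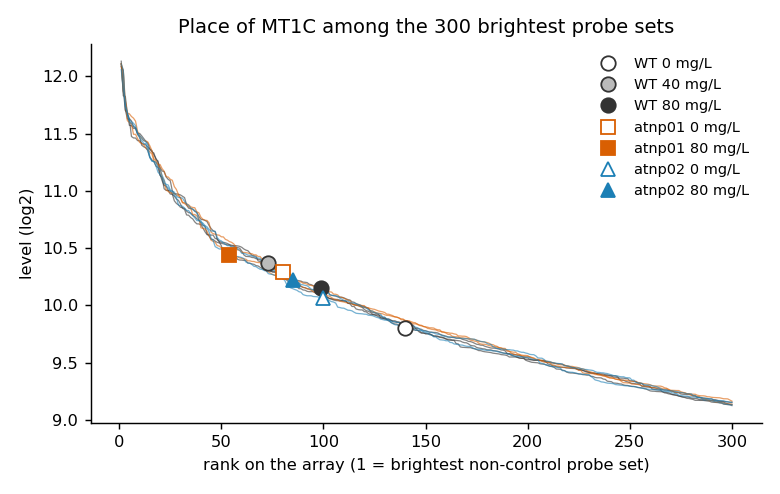
Level (log2) against rank for the 300 brightest non-control probe sets of each array, drawn as 1 line per array, with MT1C marked on each. The marks run from rank 54 in atnp01 at 80 mg/L to rank 140 in WT without QDs, along a part of the curve where a small change in level moves many ranks.

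The brightest probe set of an array reached between 12.06 and 12.13, so MT1C lay between 1.67 and 2.33 below the top of the scale. By mean level over the 7 arrays MT1C took place 23 among named genes. Directly above it stood AT4G23670, AT1G09310 and AT1G52300, with means of 10.21, 10.23 and 10.24. Directly below it stood AT1G51400, AT1G74470 and psbF, with means of 10.12, 10.11 and 10.10. psbF encodes a subunit of cytochrome b559 in photosystem II. Of these 6 neighbours, AT1G52300, AT1G09310, AT1G51400 and AT1G74470 fell at 80 mg/L, while AT4G23670 (0.16, adjusted p = 0.0507) and psbF (-0.05, adjusted p = 0.461) did not pass the test in limma. MT1C was the 1 gene of these 7 that passed in the upward direction. Over all genes tested 27.8% passed upward and 29.3% downward.

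At 80 mg/L MT1C was modestly higher in each of the lines. The difference from 0 mg/L was 0.35 in WT, 0.15 in atnp01 and 0.16 in atnp02, or 1.27-fold, 1.11-fold and 1.11-fold if a log2 difference of 1 is taken as 2-fold. None of these differences, nor that of WT at 40 mg/L, reached 2-fold, while 8.09%, 11.3%, 11.6% and 7.36% of the genes at or above log2 6 did so in the same pairs, in that order. In the fit across the lines MT1C rose by 0.22 (SE 0.066, 95% interval 0.063 to 0.377, limma adjusted p = 0.027 over the 2106 genes that reached log2 6), with a higher level in 3 of 3 lines. Any handling that the exposed arrays had in common cannot be told apart from the dose. The fit called 57.1% of the genes tested, 27.8% in the upward direction, so a call of this kind is common. Its size was small among them. Only 2.33% of the called genes had a smaller absolute coefficient, and the median absolute coefficient of the calls was 0.49.

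The call for 80 mg/L was not stable. It was lost in 8 of 13 alternative fits, among them each of the 3 that left out the arrays of 1 line, with adjusted p between 0.0564 and 0.0745. The coefficient was 0.16 without the WT arrays, and 0.25 without the atnp01 or the atnp02 arrays. It kept its sign in all 13, between 0.16 and 0.31, and was highest after cyclic loess normalization. Most of the 13 could not have turned the sign. The settings of floor, trend, gene set, line term and linear dose leave the coefficient as it is. The fits without 1 line, or with the WT 40 mg/L array as exposed, average differences that are all positive. Only the normalizations put the sign to a test.

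**Figure D3:**
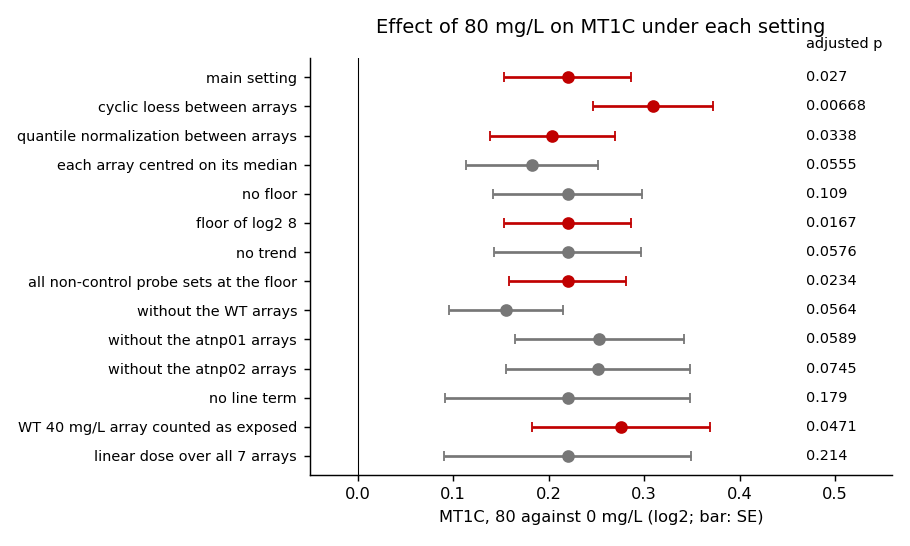
Coefficient of MT1C for 80 against 0 mg/L (log2, bars are SE) in the limma fit and in 13 alternatives, with the adjusted p at the right. Red marks fits with an adjusted p under 0.05 and grey the others. All coefficients lie above 0, from 0.16 to 0.31, while 8 of the 13 alternatives are grey. Most of the alternatives, other than the normalizations, could not have turned the sign.

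The largest response of MT1C between 2 arrays of 1 line was that of WT at 40 mg/L, below the inhibitory dose per the labels. The 40 mg/L array lay 0.56 above the 0 mg/L array, 1.48-fold and 4.91 times the SD of a difference of 2 arrays. Among the 1929 genes at the floor of log2 6 in this pair, 12.4% had a higher difference and the median over all of them was -0.001. In a fit of all 7 arrays with 3 dose levels, the coefficient of MT1C for 40 mg/L was 0.50 (SE 0.11, 95% interval 0.25 to 0.75, limma adjusted p = 0.0145), where 35.0% of 2140 genes were called and 17.7% in the upward direction. This coefficient is measured against the level fitted for unexposed WT over all arrays, and its error comes from the other 6. The 40 mg/L dose was given to 1 array, which has no residual of its own and is assumed to vary like the others, so its p-value has no replicate behind it. The adjusted p was under 0.05 in 6 of 7 alternatives, and 0.0752 with no floor on low levels.

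MT1C was no higher at 80 than at 40 mg/L in WT. The 80 mg/L array lay below the 40 mg/L array, with a difference of -0.21. The fit of 7 arrays takes 1 effect of 80 mg/L for all lines, so its difference is not one of the WT arrays alone. The difference in the fit of 7 arrays was -0.28 (SE 0.11, 95% interval -0.53 to -0.03), and it missed the threshold at a limma adjusted p of 0.23, where 3.32% of the genes passed. For MT1C, 80 mg/L is therefore neither shown to differ from 40 mg/L nor shown to equal it.

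Without QDs MT1C was higher in both mutants than in WT. atnp01 lay 0.48 above WT, or 1.40-fold, and of 1829 genes at the floor 0.875% had a higher difference in this pair and 3.77% a larger one in either direction. atnp02 lay 0.26 above WT, or 1.20-fold, and of 1778 genes 3.82% had a higher difference and 11.5% a larger one in either direction. Among the 31 named genes with a mean level of log2 10 or above, no other gene had a higher difference from WT in either mutant, while atpB and atpE, plastid genes for subunits of the ATP synthase, lay below WT by more than MT1C lay above it in both. At that brightness the medians of the 2 differences were -0.01 and -0.02. This rank is a description of 3 arrays, and both differences share the array of unexposed WT.

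At 80 mg/L the lines lay closer together. atnp01 was 0.29 above WT and atnp02 0.07 above it, the latter less than the SD of a difference of 2 arrays. Against atnp01, atnp02 was lower at both doses, with differences of -0.23 without QDs and -0.22 at 80 mg/L. After quantile normalization these were -0.15 and -0.29.

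**Figure D4:**
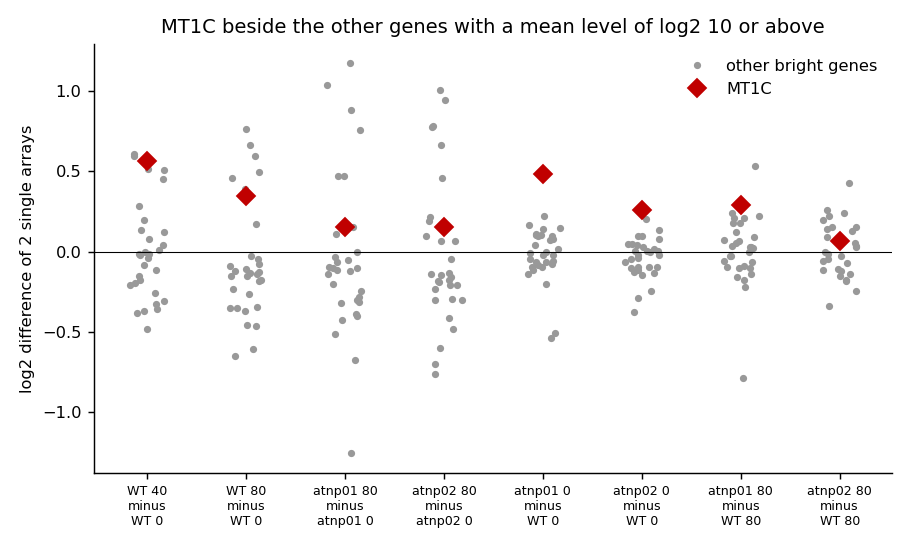
Log2 differences between 2 single arrays for MT1C (red) and for the other 30 named genes with a mean level of log2 10 or above (grey), in 8 pairs of arrays. MT1C lies above all other genes in both comparisons of an unexposed mutant with unexposed WT (0.48 and 0.26), and inside the range of the others in the remaining 6 pairs.

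Over both doses, none of the line differences of MT1C passed the threshold. The coefficient of atnp01 against WT was 0.39 (SE 0.081, 95% interval 0.19 to 0.58, limma adjusted p = 0.139), and that of atnp02 was 0.16 (SE 0.081, 95% interval -0.03 to 0.35, limma adjusted p = 0.696). Few genes passed at all in these comparisons, 0.142% and 0.0475% of those tested. The difference of atnp02 from atnp01 was -0.23 (95% interval -0.42 to -0.03, limma adjusted p = 0.577), where 0.0950% of the genes passed. The intervals of atnp01 against WT and of atnp02 against atnp01 do not contain 0, while neither p held once adjusted over all genes.

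The response of MT1C to 80 mg/L in the mutants was also set against that in WT. The mutant-by-dose term was -0.19 (SE 0.11, 95% interval -0.45 to 0.06, limma adjusted p = 0.552), and 0.0475% of the genes passed. A smaller response in the mutants was therefore not shown. In this fit the mutants stood 0.37 above WT at 0 mg/L (SE 0.076, limma adjusted p = 0.186, with 0.0475% of genes called) and 0.18 above it at 80 mg/L (SE 0.076, limma adjusted p = 0.316, with 2.09% called). The responses were 0.35 in WT (SE 0.088, limma adjusted p = 0.0251, with 26.6% of genes called, and not passing in 3 of 7 alternatives) and 0.16 in the mutants (SE 0.062, limma adjusted p = 0.0667, with 56.7% called). These 4 contrasts were added after the data were examined. The fit takes the 2 mutants as replicates of 1 class with 1 residual degree of freedom, and each WT array is assumed to vary like theirs. As deposited, the mutants' responses to 80 mg/L were nearly equal, with a residual SD of 0.00142 that moderation raised to 0.0622, while after quantile normalization they were 0.24 in atnp01 and 0.10 in atnp02. The p-value of the WT response therefore has no replicate of WT behind it.

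Measured over all arrays, MT1C varied about as much as other genes that were read well. Its range was 0.64, against a median of 0.56 over the 2140 genes that reached log2 6 on some array, of which 41.31% had a larger range. Among the 31 bright genes the median range was 0.45, and 7 of them varied more than MT1C. Of these 31 genes, 22.6% (7) rose at 80 mg/L and 41.9% (13) fell, with a median coefficient of -0.13. Over all 2106 genes tested 27.8% rose and 29.3% fell, with a median of -0.03. The 7 included MT1C, whose coefficient was the seventh highest of the 31. The highest were those of atpB (0.95) and atpE (0.76), of AT4G16190 (0.86) and of CCL (0.71).

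Of the other genes of metal binding and transport, few could be read. The 4 lists of metallothioneins, of phytochelatin and glutathione synthesis, of cadmium, zinc and iron transport and of copper handling held 56 entries. Of these, 5 were annotated and 4 of those reached the floor, and of the 4, MT1C rose and GR1 and GR2 fell at 80 mg/L, beside the 57.1% of all genes called. The fourth, CCS, reached the floor in that fit only on the unexposed arrays. PCS1 and PCS2, the phytochelatin synthase genes, and GSH1 and GSH2, of glutathione synthesis, were not analysed here.

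The glutathione reductases GR1 and GR2, which return oxidised glutathione to its thiol form, moved the other way from MT1C at 80 mg/L. For GR1 the differences were -0.35 (WT), -0.21 (atnp01) and -0.28 (atnp02), with a coefficient of -0.28 (limma adjusted p = 0.0137). For GR2 they were -0.51, -0.34 and -0.62, with a coefficient of -0.49 (limma adjusted p = 0.00236). At 40 mg/L in WT the 2 genes parted, with differences of 0.14 for GR1 and -0.54 for GR2.

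CCS, the chaperone that delivers copper to superoxide dismutase, had the largest difference among the 4. Its levels in WT, in order of dose, were 7.79, 6.22 and 5.14, so it was lower at each step in dose. Its coefficient across the lines was -2.73 (SE 0.084), given without a test, since CCS entered the fit only through the unexposed arrays, where it is high, and lay between 5.10 and 5.37 at 80 mg/L. ZIP9, of the ZIP family of zinc transporters, stayed between 1.34 and 2.11, below the floor on all 7 arrays, and no difference was read from it.

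The leaf markers that could be read, and 1 root marker, were lower at 80 mg/L. The 4 of 10 leaf markers on the annotation all fell, beside 29.3% of all genes tested, from RCA (-0.14), the activase of Rubisco, to LHCB4.2 (-0.79), of the light-harvesting antenna. Their levels lay between 9.23 and 11.62. Of 7 root markers, 2 were on the annotation. PYK10, a beta-glucosidase gene of roots, lay between 10.23 and 10.70 and fell by 0.25 (limma adjusted p = 0.00813), and the root hair expansin EXPA7 stayed between 1.29 and 1.88. None of 5 phloem markers was on the annotation. The part of tissue make-up in the MT1C levels was not tested.

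SAG29, a senescence-associated sugar transporter gene, was the 1 of 10 senescence markers that reached the floor. It did so only on exposed arrays, where it is high, so its coefficient of 2.08 for 80 mg/L is given without a test. Its levels, in order of dose, were 4.40, 6.98 and 6.68 in WT, 5.41 and 7.26 in atnp01, and 4.59 and 6.69 in atnp02. As with MT1C, unexposed WT was lowest, atnp01 at 80 mg/L highest, and WT higher at 40 than at 80 mg/L. They parted in atnp01 without QDs. There SAG29 (5.41) lay below every exposed array, while MT1C (10.29) lay above WT and atnp02 at 80 mg/L. The r of SAG29 with MT1C over the 7 arrays was 0.81, given without a test. WRKY53, a transcription factor of leaf senescence, lay between 1.67 and 3.45, below the floor. The part of senescence in the MT1C levels was not tested.

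Both reference genes that reached the floor, of 8 listed, moved little with dose. GAPC2, of glycolysis, was about as bright as MT1C, between 10.33 and 10.48, and had a coefficient of -0.01 (limma adjusted p = 0.873). UBC21 lay between 6.87 and 7.03 with a coefficient of 0.01 (limma adjusted p = 0.92). Without QDs, GAPC2 stood at 10.38 in WT, 10.46 in atnp01 and 10.41 in atnp02, closer together than the 3 values of MT1C.

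The genes whose pattern over the 7 arrays was most like that of MT1C were sought among 2139 genes that reached the floor. The highest r were those of AT3G18430 (0.95), AT5G54540 (0.95), AT3G60340 (0.91) and AT2G39000 (0.90). ATG8B (0.90), of the ubiquitin-like ATG8 proteins of autophagy, IDH-V (0.89), a subunit of mitochondrial isocitrate dehydrogenase, AT1G19130 (0.88) and AT1G03400 (0.88) followed. AT1G19130 reached the floor only in atnp02 at 80 mg/L (6.04), and AT1G03400 only in atnp01 at 80 mg/L (6.18). Each thus entered the search through the exposed array where it was highest. These correlations rest on 7 arrays that differ in dose and line, and they are given without a test. The median r over all 2139 genes was 0.03, and 4 genes reached 0.9.

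Likeness in shape went with a smaller swing for several of these genes. AT3G18430 and AT5G54540 ranged over 0.29 and 0.30, against 0.64 for MT1C, and neither passed the test for 80 mg/L. ATG8B ranged over 0.82, from 5.86 in unexposed WT to 6.68 in atnp01 at 80 mg/L, with a coefficient of 0.46 for 80 mg/L. IDH-V ranged over 0.59, with a coefficient of 0.34. Both were chosen by r with MT1C over arrays that include those of this fit. A positive coefficient is thus likely from the choice and is no separate result.

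By distance between profiles centred on their means, IDH-V (0.090), AT2G39000 (0.093), AT1G03400 (0.093), AT4G05160 (0.098) and AT3G45770 (0.107) lay closest to MT1C, and 3 of these 5 were among the 8 with the highest r. AT3G45770, like AT1G03400, reached the floor only in atnp01 at 80 mg/L (6.09), where MT1C was also highest. The lowest r were those of AT2G03750 (-0.93), AT3G61820 (-0.93), HAT2 (-0.92), a homeodomain-leucine zipper gene responsive to auxin, and SIS (-0.89). The 4 genes with the lowest r were highest in unexposed WT, where MT1C was lowest. Their choice by r makes this likely, so it is no separate result.

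**Figure D5:**
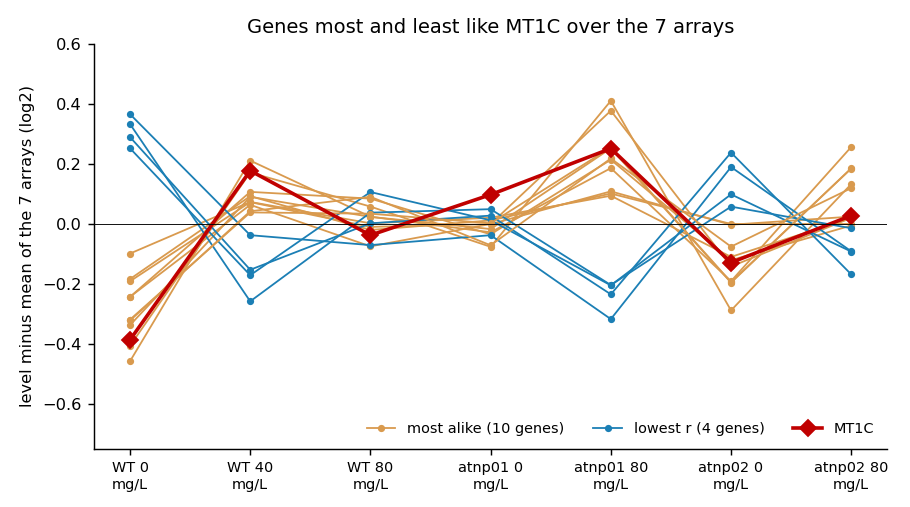
Level minus the mean over the 7 arrays (log2) for MT1C (red), for the 10 genes most like it by r or by centred distance (orange) and for the 4 genes with the lowest r (blue), 1 point per array. The orange profiles lie below 0 in unexposed WT, as does MT1C, and the blue profiles are highest there. Both sets were chosen by comparison with MT1C, so their place there follows largely from that choice.

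The 2 genes near MT1C on chromosome 1 that could be read were dim. In the gene order of assembly TAIR10.1, AT1G07615 follows MT1C directly, and MT1A and AT1G07590 lie on the other side. AT1G07615 lay between 2.07 and 2.64 and AT1G07590 between 2.52 and 3.33, and MT1A, another type 1 metallothionein gene, was not analysed here. Of the 5 genes on each side, these 2 were on the annotation. The probe set of MT1C has no suffix for shared probes, while whether its probes also match MT1A transcripts was not tested, since no probe or transcript sequences were used here.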

How the data were processed

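Per the submitters' processing notes, the authors made the deposited log2 values with Affymetrix Expression Console 1.1 and RMA. The sources used here do not state how background was removed, how probe sets were defined or whether a step followed RMA. The lowest value was 0.31, and 5337 to 6283 values per array were repeats of another, so it is not settled that these are plain RMA values, on which reading a log2 difference as a fold rests. The medians of the arrays were 3.39 to 3.47, and having 1 array per group limits the precision. Of 22810 probe sets, 64 controls were left out. Gene names came from the platform annotation, and symbols and gene order from TAIR10.1, with 13436 of 13513 single-gene probe sets matched. For a gene with several probe sets, the one with the highest mean was used. Genes whose brightest array in a comparison reached log2 6 (the floor) were tested with limma 3.58.1 in R 4.3.3 (line and dose as terms, intensity trend, Benjamini-Hochberg adjustment over all genes tested, threshold 0.05, 2 residual degrees of freedom). Differences of single arrays carry no test. The genes named were MT1C, list members that reached the floor or are given as dim, the 8 highest and 4 lowest r, the 5 closest profiles, 3 brightness neighbours on each side and the annotated genes among 5 chromosome neighbours on each side; the highest coefficients among bright genes were named after their values were seen. The gene and the lists were chosen with earlier results of these data known. Python 3.11.15 and pandas 2.3.3 were used for tables.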

Additional observations from a re-analysis of the deposited data

How the results depend on the processing

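No paired analysis by replicate number was possible because each group has 1 array; the line term already sets 80 against 0 mg/L within each line. For 80 mg/L, the coefficient of MT1C was 0.18 (adjusted p = 0.0555) with each array centred on its median, and 0.22 with no floor (adjusted p = 0.109), no intensity trend (adjusted p = 0.0576), no line term (adjusted p = 0.18) or a linear dose over all 7 arrays (adjusted p = 0.214). Leaving out 1 line gave 0.16 to 0.25. For 40 mg/L it was 0.50 with no floor (adjusted p = 0.0752). The main fit for 80 mg/L called 1202 of 2106 genes (57.1%). With no floor the count was 2552 of 13355 (19.1%), and with a floor of log2 8 it was 275 of 421 (65.3%). Over all non-control probe sets at the floor it was 2583 of 4623 (55.9%), and with a linear dose 780 of 2140 (36.4%). Without 1 line it was 798 to 1183, the lowest without the atnp01 arrays. The share of the genes tested was then 39.4% to 57.4%. Some of these alternatives test other numbers of genes; otherwise the cause was not tested.

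In the mutant-by-dose fit, the mutants passed against WT at 0 mg/L with each array centred on its median (0.39) and with a floor of log2 8 (0.37). The SE was larger in both settings (0.090 and 0.084, against 0.076 in the main fit), and the difference was no larger relative to it. These calls therefore do not mark a stronger difference, and they have no replicate of WT behind them. The WT response lost its call with quantile normalization (0.27), no floor (0.35) and no trend (0.35). That of the mutants gained one with cyclic loess (0.27) and a floor of log2 8 (0.16). At that floor its coefficient was that of the main fit and its SE was larger (0.068 against 0.062), so this call does not mark a stronger response. The single-array differences of atnp01 and atnp02, 0.15 and 0.16 as deposited, were 0.29 and 0.24 after cyclic loess, 0.24 and 0.10 after quantile normalization, and 0.15 and 0.08 with each array centred on its median. Among named genes only, the ranks of MT1C were 17 to 41. Of the 8 genes most like MT1C, 4 remained with Spearman's rho (ties broken by mean level; 17 genes reached the rho in place 8, among them 5 of the 8) and 2 without the WT 40 mg/L array. The line differences, the mutant-by-dose term and the difference between 80 and 40 mg/L stayed on their side of the threshold in all alternatives run. No result changed sign. Most settings other than the normalizations leave these coefficients as they are, so the sign was at stake mainly in the normalizations.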
